A study of Mus musculus with 9 samples.

Results

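Iron storage, uptake and heme genes were described in CD8+ T cells, the cytotoxic arm of the T lymphocytes. The members are 10 named genes, taken by symbol from the 48709 rows of the deposited expression table. By role they are Fth1, Ftl1 and Ncoa4 (storage in ferritin and release from it), Tfrc, Steap3 and Slc11a2 (uptake through the endosome), Slc40a1 (export), Hmox1 (heme breakdown), and Ireb2 and Bach1 (regulators). All 10 were found, and 9 passed the filter on low values, a group mean of 1 TPM or more. TPM scales a transcript level to the length of the transcript and to the library total, so levels of different genes can be set side by side.

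The RNA libraries form 3 groups of 3, all from mouse CD8+ T cells. OVA/Citra cells were given OVA peptide and citraconate, OVA cells were given OVA peptide alone, and CTRL cells had no OVA peptide. The peptide, a piece of the egg-white protein ovalbumin, is a standard test antigen. Citraconate is an isomer of the macrophage metabolite itaconate. No group had citraconate without peptide. The sources used here do not give dose, time, strain or age, nor whether replicates are separate animals or cultures. The p-values therefore measure only the spread between these libraries, which may be technical.

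Animal cells take up iron mostly as transferrin bound to its receptor, reduce and release it in the endosome, and store the surplus inside a ferritin shell made of heavy and light subunits. The iron-regulatory proteins IRP1 and IRP2 sense iron in the cytosol and bind a hairpin called the iron-responsive element. In the 5′ untranslated region of a ferritin mRNA the bound protein blocks translation, and in the 3′ untranslated region of the transferrin receptor mRNA it protects the transcript from decay. Transcription adds a second layer, since NRF2 activates and BACH1 represses the ferritin and heme oxygenase genes, and heme releases BACH1 from DNA. Dividing lymphocytes depend on the transferrin receptor for iron.

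Iron-responsive elements found in these genes with a fixed pattern are shown. Such elements set apart the transcripts that iron regulates by translation and those it regulates by decay. They were read from GENCODE M21 transcripts on build GRCm38, 5′ to 3′ on the transcript strand, each 29 bases long, with the 6-base loop in capitals. They lie in the 5′ untranslated regions of Fth1 (chr19:9982732-9982760, plus strand), Ftl1 (chr7:45459779-45459807, minus strand) and Slc40a1 (chr1:45925465-45925493, minus strand). The other 4 lie in the 3′ untranslated region of Tfrc on the plus strand of chromosome 16, at chr16:32631219-32631247, chr16:32631598-32631626, chr16:32631663-32631691 and chr16:32631710-32631738, in the order printed.
Fth1: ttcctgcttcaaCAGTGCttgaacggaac
Ftl1: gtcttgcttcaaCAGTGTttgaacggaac
Slc40a1: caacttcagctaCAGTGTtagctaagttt
Tfrc element 1: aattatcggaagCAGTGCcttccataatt
Tfrc element 2: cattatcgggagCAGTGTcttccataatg
Tfrc element 3: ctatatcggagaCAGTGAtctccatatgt
Tfrc element 4: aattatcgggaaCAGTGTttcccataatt

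The search asked for a C, then 5 bases, the loop CAGTGN, and 5 bases that pair with the 5 before the loop, G-T pairs included. Of 21877 protein-coding genes, 31 (0.142%) held such a sequence in a 5′ untranslated region and 129 (0.590%) in a 3′ untranslated region. In Slc11a2, Ncoa4, Steap3, Hmox1, Ireb2 and Bach1 this pattern was not found in either untranslated region. It allows no bulge or mismatch in the 5 pairs and no other loop, so elements of another form are missed. A gene without a match may therefore still hold an element. The number of Tfrc elements printed is likewise a count of matches only. A match is a description of the sequence and not a measurement of binding.

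Across the groups, both ferritin genes, the heme oxygenase gene Hmox1 and the endosomal reductase gene Steap3 were highest in OVA cells. They differed in the lowest group, which was OVA/Citra for Fth1 and Steap3 and CTRL for Ftl1 and Hmox1. The transferrin receptor gene Tfrc was highest in OVA/Citra cells and lowest in CTRL cells. Of the 9 tested genes, 6 passed the test in OVA/Citra against OVA cells (1 higher, 5 lower), 8 in OVA against CTRL cells (6 higher, 2 lower) and 8 in OVA/Citra against CTRL cells (4 higher, 4 lower). The test was limma over all 11971 genes with at least 1 TPM in a group, with a Benjamini-Hochberg adjusted p under 0.05. It called 59% of all genes in OVA/Citra against OVA, 71.9% in OVA against CTRL and 59.4% in OVA/Citra against CTRL, so most genes of any kind changed and the members' counts are read against that. Higher calls made up 37.8%, 32.1% and 33.1% of all genes in these comparisons, and lower calls 21.2%, 39.8% and 26.3%. The 3 comparisons share libraries, so their changes are not independent of each other.

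**Figure D1:**
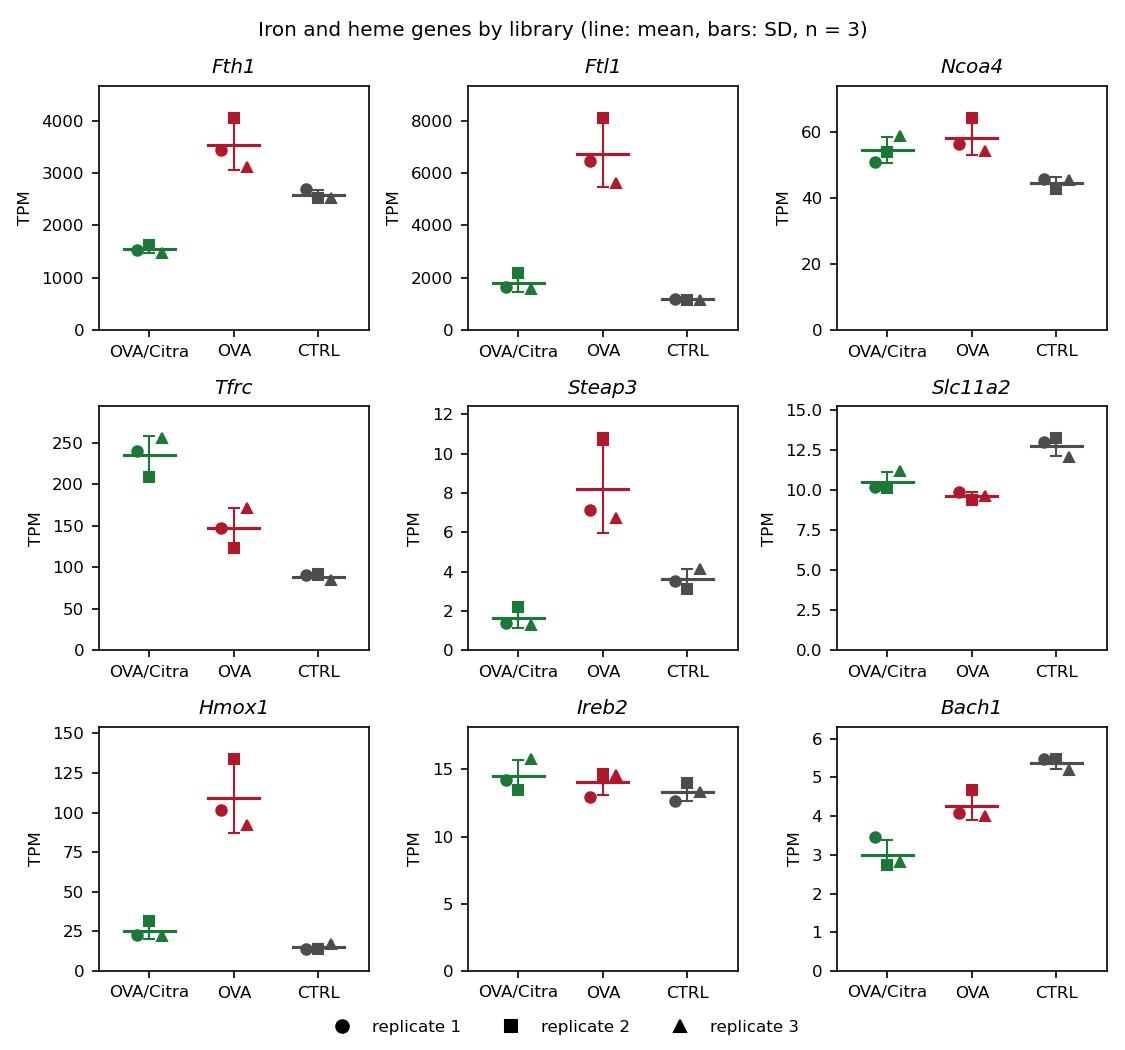
Levels in TPM (vertical axes, each from 0) of the 9 tested genes in every library, with OVA/Citra, OVA and CTRL from left to right; points are libraries by replicate number, lines are group means and bars are SD (n = 3). Fth1, Ftl1, Hmox1 and Steap3 are highest in OVA cells, and Tfrc is highest in OVA/Citra cells at 235 TPM.

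Changes below are log2 differences of group means on the log2(TPM + 1) scale, which understates the change of low genes, given with a standard error. The median change over all tested genes was 0.12 for OVA/Citra against OVA, -0.078 for OVA against CTRL and 0.039 for OVA/Citra against CTRL. Each change is printed relative to that median, while its adjusted p is that of the change itself. With libraries scaled by the median of ratios, 49.1% of all calls in OVA/Citra against OVA were higher, against 64.0% without that scaling.

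Fth1 encodes the heavy subunit of ferritin, which carries the ferroxidase site that oxidises iron for storage. Its level was 1524, 1620 and 1476 TPM in OVA/Citra cells, 3439, 4057 and 3109 TPM in OVA cells, and 2691, 2521 and 2527 TPM in CTRL cells. The 3 groups did not overlap, with OVA cells highest and OVA/Citra cells below CTRL cells. The change was -1.31 ± 0.0875 in OVA/Citra against OVA (adjusted p = 8.25e-06), 0.52 in OVA against CTRL (adjusted p = 0.00100) and -0.78 in OVA/Citra against CTRL (adjusted p = 5.23e-05). Fth1 thus passed the test in all 3 comparisons, and the mean level in OVA/Citra cells was 0.436 times that in OVA cells. In bulk RNA, fewer cells expressing a gene and less of its RNA per cell cannot be told apart.

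Ftl1 encodes the light subunit, which helps the iron core form inside the shell. Its level was 1627, 2160 and 1570 TPM in OVA/Citra cells, 6460, 8110 and 5609 TPM in OVA cells, and 1201, 1154 and 1154 TPM in CTRL cells. Unlike Fth1, the lowest libraries were the CTRL ones, with OVA/Citra cells between the other groups and no overlap. The change was -2.03 ± 0.141 in OVA/Citra against OVA (adjusted p = 8.38e-06), 2.58 in OVA against CTRL (adjusted p = 2.12e-07) and 0.56 in OVA/Citra against CTRL (adjusted p = 0.00446). The OVA mean was 5.75 times the CTRL mean for Ftl1 and 1.37 times for Fth1.

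The balance of the subunit transcripts is described by their ratio. The Fth1 to Ftl1 ratio of TPM was 0.937, 0.750 and 0.940 in OVA/Citra libraries, 0.532, 0.5002 and 0.554 in OVA libraries, and 2.24, 2.19 and 2.19 in CTRL libraries. Heavy-subunit transcripts outnumbered light-subunit transcripts in CTRL libraries, and light-subunit transcripts were the more abundant in all libraries with peptide. The mean log2 ratio differed by 0.72 in OVA/Citra against OVA, by -2.06 in OVA against CTRL and by -1.34 in OVA/Citra against CTRL, with no overlap. The two-sided exact permutation p was 0.1 each time, also adjusted over the 3 comparisons, which is the smallest that 3 against 3 libraries can give. Together both transcripts made up 0.333% ± 0.0397 of all transcripts in OVA/Citra cells, 1.03% ± 0.175 in OVA cells and 0.375% ± 0.0123 in CTRL cells (SD, n = 3 each). The summed levels of OVA/Citra and CTRL libraries overlapped, while their ratios did not.

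**Figure D2:**
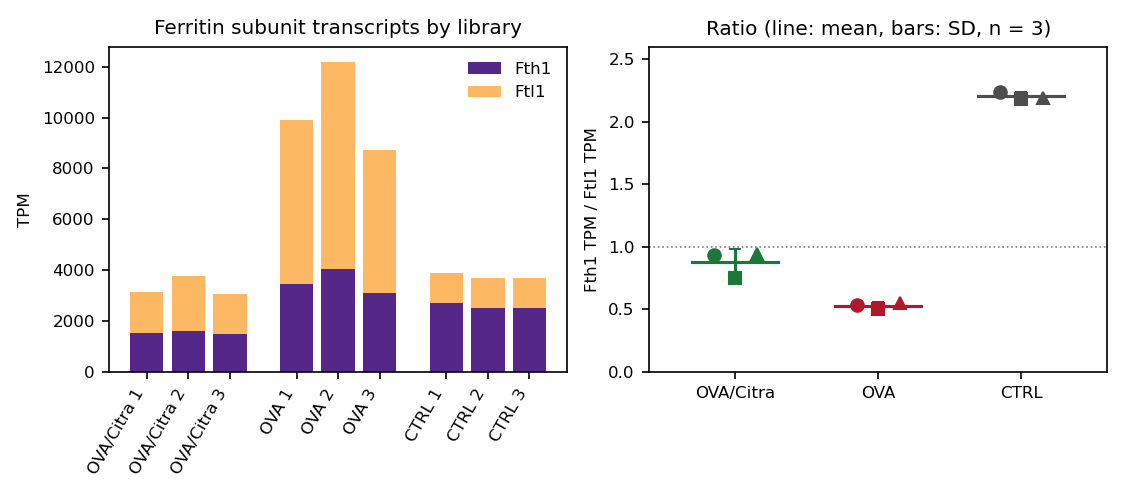
Left, stacked TPM of Fth1 and Ftl1 in each library (vertical axis from 0); right, the Fth1 to Ftl1 ratio of TPM with points for libraries, lines for means and bars for SD (n = 3), OVA/Citra left, OVA in the middle and CTRL right. The ratio averages 0.876 in OVA/Citra, 0.529 in OVA and 2.21 in CTRL libraries.

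The table also has a row for the processed copy Ftl1-ps1, at 4.80 ± 0.931 TPM in OVA/Citra cells, 17.1 ± 4.81 TPM in OVA cells and 2.32 ± 1.29 TPM in CTRL cells (SD, n = 3 each). That is 0.108% to 0.374% of Ftl1 in a library, and how reads of near-identical copies were divided between the rows was not tested. Fth1 has 2 numbered rows, of which 1 is listed at 0 in all 9 libraries, and their sum was used.

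Ncoa4 encodes the receptor that delivers ferritin to the lysosome so that its iron is released. Its level was 51.1, 54.1 and 58.9 TPM in OVA/Citra cells, 56.4, 64.4 and 54.3 TPM in OVA cells, and 45.8, 42.7 and 45.5 TPM in CTRL cells. Both groups with peptide lay above CTRL cells and overlapped each other. Ncoa4 rose in OVA against CTRL by 0.45 ± 0.0768 (adjusted p = 0.00134) and in OVA/Citra against CTRL by 0.25 (adjusted p = 0.00907). In OVA/Citra against OVA the change was -0.21 (adjusted p = 0.334), and with libraries scaled by the median of ratios it passed the test as lower (adjusted p = 0.0433). The OVA/Citra mean was 0.938 times the OVA mean.

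Tfrc encodes the transferrin receptor, the main route of iron into T cells. Its level was 240, 209 and 255 TPM in OVA/Citra cells, 147, 123 and 171 TPM in OVA cells, and 90.4, 92.0 and 84.4 TPM in CTRL cells. The groups did not overlap, and the order ran opposite to the ferritin genes between OVA/Citra and OVA cells. Tfrc rose by 0.56 ± 0.111 in OVA/Citra against OVA (adjusted p = 5.14e-04), by 0.79 in OVA against CTRL (adjusted p = 2.23e-04) and by 1.35 in OVA/Citra against CTRL (adjusted p = 3.76e-06). It was the only one of the 9 tested members that was higher in OVA/Citra than in OVA cells by this test, and its mean was 2.64 times that of CTRL cells in OVA/Citra cells and 1.65 times in OVA cells.

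Steap3 encodes an endosomal reductase that turns ferric into ferrous iron, a role known best from red cell precursors. Its level was low, at 1.37, 2.21 and 1.30 TPM in OVA/Citra cells, 7.16, 10.8 and 6.73 TPM in OVA cells, and 3.54, 3.14 and 4.17 TPM in CTRL cells. These levels rest on 47, 75 and 48 reads in OVA/Citra, 267, 395 and 266 reads in OVA, and 117, 110 and 165 reads in CTRL libraries. The groups did not overlap, and the order was that of Fth1, with OVA/Citra cells lowest. The change was -1.93 ± 0.188 in OVA/Citra against OVA (adjusted p = 4.04e-05), 1.06 in OVA against CTRL (adjusted p = 8.83e-04) and -0.86 in OVA/Citra against CTRL (adjusted p = 0.00361). The OVA/Citra mean was 0.198 times the OVA mean, the lowest such ratio among the 9 tested members.

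Slc11a2 encodes DMT1, which carries ferrous iron out of the endosome into the cytosol. Its level was 10.2, 10.1 and 11.2 TPM in OVA/Citra cells, 9.86, 9.41 and 9.62 TPM in OVA cells, and 13.0, 13.2 and 12.04 TPM in CTRL cells. Both groups with peptide lay below CTRL cells. Slc11a2 fell in OVA against CTRL by 0.29 ± 0.0768 (adjusted p = 0.00145) and in OVA/Citra against CTRL by 0.30 (adjusted p = 0.0149). Without CTRL replicate 2 the fall in OVA/Citra against CTRL no longer passed (adjusted p = 0.0578). In OVA/Citra against OVA all 3 libraries lay above those of OVA cells, but the change of 0.11 did not pass (adjusted p = 0.231), and relative to the median of all genes it was -0.011. The receptor, the reductase and the carrier of this uptake route thus had a different order of groups each.

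Slc40a1 encodes ferroportin, the iron exporter that macrophages and gut cells use. It was listed at 0 TPM in all 9 libraries, so no fold change was computed. At 14754470 to 17384330 reads a library, a count of 0 allows up to 3 reads, or 0.173 to 0.203 of every 1000000 reads, and this floor covers counting error only. For comparison, 10 abundant genes that all cells use were at or above 235 TPM in every library, which does not test a single row listed at 0. How reads were assigned to the Slc40a1 row was not tested. The ferroportin transcript was thus not detected in these values at this depth.

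Hmox1 encodes the inducible heme oxygenase, which breaks heme down to biliverdin, carbon monoxide and ferrous iron. Its level was 22.7, 31.5 and 22.0 TPM in OVA/Citra cells, 101, 134 and 92.3 TPM in OVA cells, and 14.1, 13.6 and 17.1 TPM in CTRL cells. The groups did not overlap, in the same order as Ftl1. The change was -2.19 ± 0.162 in OVA/Citra against OVA (adjusted p = 1.02e-05), 2.86 in OVA against CTRL (adjusted p = 2.51e-07) and 0.68 in OVA/Citra against CTRL (adjusted p = 0.00343). Its mean in OVA/Citra cells was 0.233 times the OVA mean and 1.70 times the CTRL mean. In OVA cells the mean was 7.32 times the CTRL mean, the highest such ratio among the 9 tested members.

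Macrophages use Hmox1, ferritin and ferroportin heavily to recycle iron, so their markers are given beside these genes. Of 11 macrophage and monocyte markers in the table, Marco, Cd163, Spic and Vcam1 were listed at 0 in all libraries, and Csf1r, Adgre1 and Lyz2 averaged at most 0.202 TPM in any group. The summed level of the list was 14.4 to 22.1 TPM in OVA/Citra, 18.5 to 23.8 TPM in OVA and 4.48 to 8.28 TPM in CTRL libraries. Nearly all of it came from Cd68 (14.2, 12.8 and 6.16 TPM on average in OVA/Citra, OVA and CTRL) and Cd14 (3.57, 7.87 and 0.361 TPM). These were the 2 tested genes of the list, and both passed as higher in OVA and in OVA/Citra against CTRL cells. In OVA/Citra against OVA, Cd14 passed as lower (adjusted p = 0.00337) and Cd68 did not pass (adjusted p = 0.655). Cd14 thus had the order of groups that Ftl1 and Hmox1 had, and its part in their changes was not tested.

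Summed T cell markers, all 8 of them detected, were 6861 to 7164 TPM in OVA/Citra, 4041 to 5053 TPM in OVA and 7897 to 8307 TPM in CTRL libraries, so they were lowest where the ferritins were highest. Of these 8 markers, 7 passed as higher in OVA/Citra against OVA and 7 as lower in OVA against CTRL. In OVA/Citra against CTRL, 1 passed as higher and 2 as lower. Thy1, the largest part of the sum, averaged 2640, 2736 and 2662 TPM in OVA/Citra, OVA and CTRL cells. It did not pass in OVA against CTRL (adjusted p = 0.569). Cd8a was highest in OVA/Citra cells, at 325, 142 and 217 TPM in the same order. The summed erythroid list, of interest for Tfrc, was 13.9 to 15.3 TPM in OVA/Citra, 4.17 to 5.79 TPM in OVA and 8.84 to 10.02 TPM in CTRL libraries, with Slc4a1, Hbb-bs and Ermap listed at 0 throughout. Most of it came from Hbb-bt (11.2, 3.29 and 6.08 TPM on average in OVA/Citra, OVA and CTRL) and Epor (2.88, 0.517 and 0.735 TPM). Of its 3 tested genes, 2 passed as higher and 0 as lower in OVA/Citra against OVA, 0 as higher and 1 as lower in OVA against CTRL, and 2 as higher and 1 as lower in OVA/Citra against CTRL. The 4 B cell markers summed to 0 to 0.578 TPM in OVA/Citra, 0.422 to 1.16 TPM in OVA and 13.5 to 15.3 TPM in CTRL libraries, and Cd4 and Zbtb7b to 16.6 to 17.9, 18.1 to 20.6 and 30.6 to 31.1 TPM. The part of these markers in the members' changes was not tested.

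Ireb2 encodes IRP2, the iron-regulatory protein that is degraded when iron is plentiful. Its level was 14.2, 13.5 and 15.8 TPM in OVA/Citra cells, 12.9, 14.6 and 14.6 TPM in OVA cells, and 12.6, 14.0 and 13.3 TPM in CTRL cells, and all groups overlapped. The change was -0.084 ± 0.0849 in OVA/Citra against OVA (adjusted p = 0.704), 0.15 in OVA against CTRL (adjusted p = 0.463) and 0.073 in OVA/Citra against CTRL (adjusted p = 0.281). Ireb2 was the only tested member that passed in no comparison, although IRP2 is controlled largely at the protein level, which these libraries do not measure.

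Bach1 encodes the heme-sensing repressor of Hmox1 and the ferritin genes. Its level was 3.45, 2.73 and 2.80 TPM in OVA/Citra cells (128, 100 and 112 reads), 4.09, 4.67 and 4.0001 TPM in OVA cells (165, 185 and 171 reads), and 5.48, 5.47 and 5.18 TPM in CTRL cells (196, 207 and 222 reads). The groups did not overlap, and Bach1 was lowest in OVA/Citra and highest in CTRL cells, the reverse of Tfrc. It fell in OVA/Citra against CTRL by 0.72 ± 0.107 (adjusted p = 3.78e-04) and in OVA/Citra against OVA by 0.52 (adjusted p = 0.00915). In OVA against CTRL the fall of 0.20 passed narrowly (adjusted p = 0.0367), and did not pass without either OVA replicate 1 or 3 (adjusted p = 0.0975 and 0.102) or without any CTRL replicate (adjusted p = 0.0534 to 0.0904). Scaled by the median of ratios it did not pass either (adjusted p = 0.102).

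**Figure D3:**
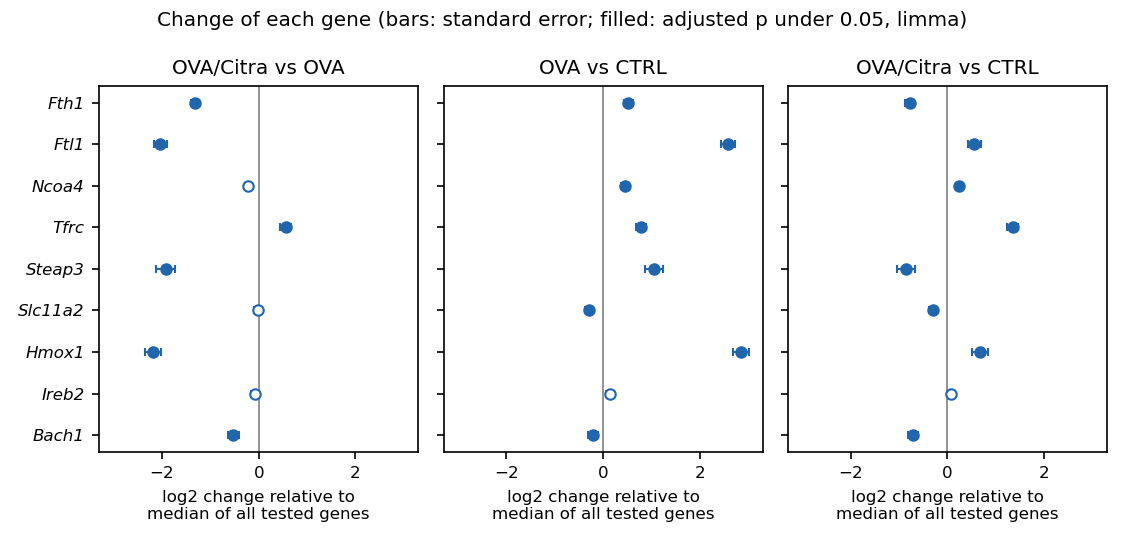
Log2 change of each tested gene minus the median change of all tested genes (horizontal axis), in OVA/Citra against OVA, OVA against CTRL and OVA/Citra against CTRL from left to right; bars are standard errors and filled points passed at an adjusted p under 0.05. Hmox1 lies at -2.19, 2.86 and 0.68 and Tfrc at 0.56, 0.79 and 1.35.

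Over the 9 tested members the median relative change was -0.52 in OVA/Citra against OVA, 0.52 in OVA against CTRL and 0.073 in OVA/Citra against CTRL, where all tested genes have a median of 0 by construction. Groups did not overlap for 7, 8 and 8 of the 9 members, beside 66.1%, 75% and 67.4% of all tested genes. In OVA cells the spread between replicates was widest for Steap3 and Hmox1, with coefficients of variation of 27.1% and 20.1%. OVA replicate 2 was the highest and OVA/Citra replicate 2 the highest of its own group for Fth1, Ftl1, Hmox1 and Steap3, and both were the lowest of their group for Tfrc. These libraries also stood apart over all genes, with a chi-square per gene of 11.4 to 23.8 for replicate pairs that hold either of them and 3.73 to 6.42 for the others. Without both, the tested members called numbered 5, 8 and 8, and the change lost was Bach1 in OVA/Citra against OVA (adjusted p = 0.0797).

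By Pearson correlation of log2(TPM + 1) over the 9 libraries, among 7834 genes with at least 10 TPM in a group, the nearest pattern to Hmox1 was that of Sqstm1 (r = 0.998), with 222, 602 and 146 TPM on average in OVA/Citra, OVA and CTRL cells. Nearest to Ftl1 was B4galnt2 (r = 0.999), to Fth1 Eif4ebp1 (r = 0.995) and to Tfrc Hivep3 (r = 0.994). B4galnt2 averaged only 1.37 TPM in OVA/Citra and 0.0966 TPM in CTRL cells, against 33.6 TPM in OVA cells. A high r thus does not mean a like level or size of change. Nearest to Steap3 was Trp53i11 (r = 0.990), to Bach1 Tsc22d4 (r = 0.987), to Slc11a2 Rmi1 (r = 0.991), to Ncoa4 Tbc1d13 (r = 0.972) and to Ireb2 Med9 (r = 0.925). The libraries fall into 3 groups, so such values describe a shared order of groups and carry no test.

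The letters TGACNNNGC, the core of the antioxidant response element that NRF2 and BACH1 both bind, were searched on both strands of RefSeq promoter windows of build GRCm38.p6, 250 bases before to 50 after a start. Windows were matched for 7 members, so Hmox1, Slc40a1 and Slc11a2 were not searched. The letters stood in 1 of 3 windows of Ncoa4 and in none of the windows of Fth1, Ftl1, Tfrc, Steap3, Ireb2 and Bach1, where 12.4% of 32851 windows held them. Elements further from the start are outside these windows, so no match says only that these letters are not there.

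Other iron and heme genes were read from 5 lists written for this pathway, 83 genes in all, of which 66 were tested and 7 were listed at 0. In OVA/Citra against OVA, 18 rose and 17 fell, in OVA against CTRL 37 rose and 18 fell, and in OVA/Citra against CTRL 28 rose and 7 fell. These calls are 53.0%, 83.3% and 53.0% of the tested genes, beside 59%, 71.9% and 59.4% of all genes. The shares called of each list below are given in the same order of comparisons and are read against those of all genes. The median relative changes were -0.18, 0.30 and 0.13. Scaled by the median of ratios, 15 rose and 28 fell in OVA/Citra against OVA, 39 rose and 13 fell in OVA against CTRL, and 26 rose and 10 fell in OVA/Citra against CTRL. The balance in OVA/Citra against OVA thus depends on the scaling.

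**Figure D4:**
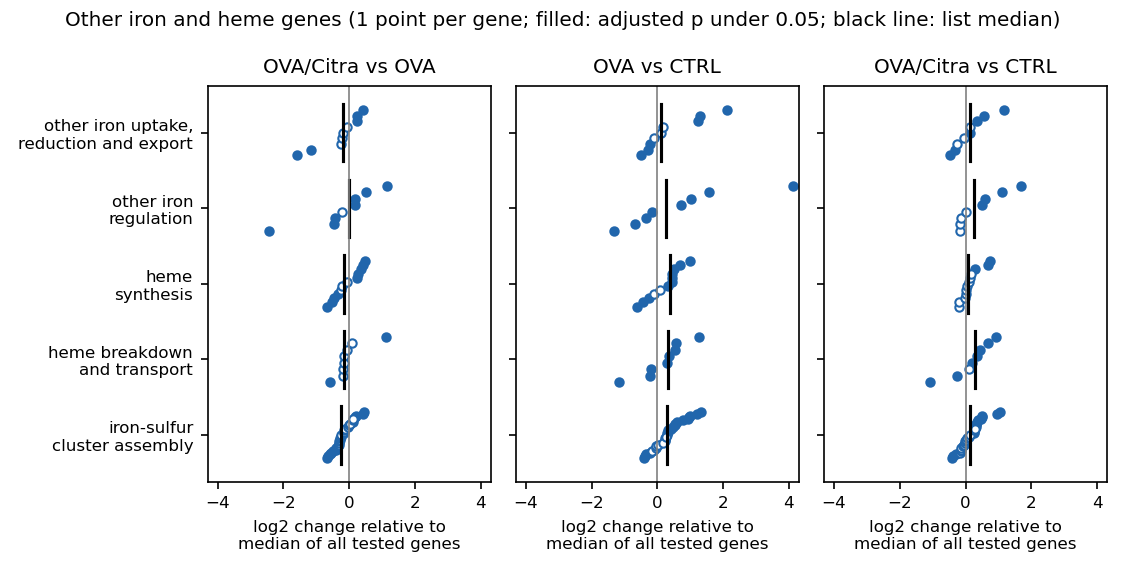
Log2 change minus the median of all tested genes (horizontal axis) for every tested gene of 5 lists, with OVA/Citra against OVA, OVA against CTRL and OVA/Citra against CTRL from left to right; filled points passed at an adjusted p under 0.05 and black lines are list medians. All other iron and heme genes together have medians of -0.18, 0.30 and 0.13.

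Of 17 other genes of iron uptake, reduction and export, 9 were tested, and 3 rose and 2 fell in OVA/Citra against OVA, 3 rose and 3 fell in OVA against CTRL, and 4 rose and 2 fell in OVA/Citra against CTRL. Shares called were 55.6%, 66.7% and 66.7%. Slc39a14, the importer ZIP14 that carries zinc and iron not bound to transferrin, had 11.2 ± 1.604 TPM in OVA/Citra cells, 32.4 ± 4.69 TPM in OVA cells and 7.05 ± 0.704 TPM in CTRL cells (SD, n = 3 each). It changed by -1.58 in OVA/Citra against OVA (adjusted p = 1.68e-05) and by 2.12 in OVA against CTRL (adjusted p = 3.51e-07), the order of groups that Ftl1 and Hmox1 had. Pcbp2, a chaperone that hands iron to ferritin, averaged 522 TPM in OVA/Citra, 360 TPM in OVA and 464 TPM in CTRL cells. Mcoln1, a lysosomal channel that lets iron out, averaged 17.7 TPM in OVA/Citra and 13.4 TPM in OVA cells and rose by 0.25 (adjusted p = 0.00129). Slc25a28, the mitochondrial iron importer mitoferrin-2, averaged 14.5 TPM in OVA and 21.9 TPM in CTRL cells and fell by 0.49 (adjusted p = 2.58e-04). Slc39a8, the related importer ZIP8, averaged 4.89 TPM in OVA/Citra and 6.91 TPM in CTRL cells and fell by 0.46 (adjusted p = 0.00557).

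Of 13 other regulators 8 were tested, and 4 rose and 3 fell in OVA/Citra against OVA, 4 rose and 4 fell in OVA against CTRL, and 4 rose and 0 fell in OVA/Citra against CTRL. Shares called were 87.5%, 100% and 50%. Nfe2l2, which encodes NRF2, averaged 7.08 ± 0.889 TPM in OVA/Citra, 2.31 ± 0.429 TPM in OVA and 7.84 ± 1.78 TPM in CTRL cells (SD, n = 3 each). It was lowest in the group where Hmox1 and Ftl1 were highest, with a change of 1.17 in OVA/Citra against OVA (adjusted p = 1.22e-04) and -1.33 in OVA against CTRL (adjusted p = 2.91e-05). NRF2 is controlled largely by protein decay, which these libraries do not measure. Fbxl5, the iron-sensing ligase subunit that marks IRP2 for decay, averaged 8.85 TPM in OVA/Citra, 5.32 TPM in OVA and 9.69 TPM in CTRL cells, and rose by 0.51 in OVA/Citra against OVA (adjusted p = 6.59e-04). Aco1, which encodes IRP1, averaged 23.8 TPM in OVA/Citra, 29.8 TPM in OVA and 14.9 TPM in CTRL cells. It rose by 0.60 in OVA/Citra against CTRL (adjusted p = 1.15e-04), unlike its partner Ireb2.

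Tmprss6, a liver protease that limits the iron hormone hepcidin, averaged 2.78 TPM in OVA/Citra, 17.2 TPM in OVA and 0.104 TPM in CTRL cells, a change of -2.43 in OVA/Citra against OVA (adjusted p = 2.19e-05) and 4.11 in OVA against CTRL (adjusted p = 1.42e-07). Nedd4, a ubiquitin ligase, averaged 51.6 TPM in OVA/Citra, 65.6 TPM in OVA and 22.7 TPM in CTRL cells. Herc2, another ubiquitin ligase, averaged 15.98 TPM in OVA/Citra and 10.6 TPM in CTRL cells and rose by 0.51 (adjusted p = 0.00324).

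Of 12 tested heme synthesis genes, 5 rose and 4 fell in OVA/Citra against OVA, 7 rose and 3 fell in OVA against CTRL, and 3 rose and 0 fell in OVA/Citra against CTRL. Shares called were 75%, 83.3% and 25%. Alas1, the rate-limiting enzyme outside red cells, averaged 22.8 TPM in OVA/Citra and 13.4 TPM in CTRL cells and rose by 0.69 (adjusted p = 2.59e-05). Alad, the next enzyme, averaged 42.4 TPM in OVA/Citra, 62.2 TPM in OVA and 40.6 TPM in CTRL cells, a change of -0.66 in OVA/Citra against OVA (adjusted p = 8.33e-05) and 0.68 in OVA against CTRL (adjusted p = 1.51e-05). The late enzyme Ppox went the other way, at 9.88 TPM in OVA/Citra, 6.58 TPM in OVA and 11.2 TPM in CTRL cells, a change of 0.41 in OVA/Citra against OVA (adjusted p = 0.00280). The steps of heme synthesis thus did not share a direction. The porphyrin transporter Abcb6 rose by 0.48 in OVA/Citra against OVA (adjusted p = 0.00490). Uros, an enzyme of the middle of the pathway, averaged 7.67 TPM in OVA/Citra, 8.41 TPM in OVA and 4.01 TPM in CTRL cells, and Tmem14c averaged 201 TPM in OVA/Citra and 160.2 TPM in CTRL cells.

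Of 8 tested genes of heme breakdown and transport other than Hmox1, 1 rose and 1 fell in OVA/Citra against OVA, 5 rose and 3 fell in OVA against CTRL, and 5 rose and 2 fell in OVA/Citra against CTRL. Shares called were 25%, 100% and 87.5%. Hmox2, the constitutive heme oxygenase, had 150 ± 24.7 TPM in OVA/Citra cells, 62.8 ± 1.10 TPM in OVA cells and 75.7 ± 1.52 TPM in CTRL cells (SD, n = 3 each). It rose by 1.11 in OVA/Citra against OVA (adjusted p = 1.01e-05) and by 0.93 in OVA/Citra against CTRL (adjusted p = 1.71e-05). The heme oxygenases thus went opposite ways in OVA/Citra against OVA cells. Blvrb, a biliverdin reductase, averaged 5.10 TPM in OVA/Citra, 4.33 TPM in OVA and 11.5 TPM in CTRL cells and fell against CTRL cells in both. The exporter Abcg2 averaged 4.88 TPM in OVA/Citra and 7.16 TPM in OVA cells and fell by 0.59 (adjusted p = 0.0247), but did not pass without replicate 2 of both groups (adjusted p = 0.121). Mfsd7b, an older symbol of the heme exporter gene Flvcr1, averaged 12.2 TPM in OVA/Citra, 12.4 TPM in OVA and 8.38 TPM in CTRL cells.

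All 29 iron-sulfur cluster genes were tested, and 5 rose and 7 fell in OVA/Citra against OVA, 18 rose and 5 fell in OVA against CTRL, and 12 rose and 3 fell in OVA/Citra against CTRL. Shares called were 41.4%, 79.3% and 51.7%. Scaled by the median of ratios, 3 rose and 15 fell in OVA/Citra against OVA. Iscu, the scaffold on which clusters form, averaged 41.6 TPM in OVA/Citra, 46.9 TPM in OVA and 19.2 TPM in CTRL cells and rose against CTRL cells by 1.04 in OVA/Citra (adjusted p = 2.80e-06) and by 1.32 in OVA (adjusted p = 5.50e-07). Ciapin1, of the cytosolic assembly route, rose against CTRL cells by 0.95 in OVA/Citra (adjusted p = 3.36e-06) and by 1.22 in OVA (adjusted p = 6.73e-07). Nfs1, the cysteine desulfurase that supplies sulfur, averaged 32.7 TPM in OVA/Citra and 22.1 TPM in CTRL cells. The ferredoxin genes differed in direction in OVA/Citra against OVA. Fdx1 averaged 53.0 TPM in OVA/Citra and 34.8 TPM in OVA cells and rose by 0.47 (adjusted p = 0.00139). Fdx1l, an older symbol of Fdx2, averaged 68.8 TPM in OVA/Citra and 99.8 TPM in OVA cells and fell by 0.66 (adjusted p = 3.21e-04). The chaperone gene Hspa9 averaged 302 TPM in OVA/Citra and 437 TPM in OVA cells and also fell by 0.66 (adjusted p = 2.64e-05).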

How the data were processed

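The values are TPM that the authors deposited in 1 table with genes by symbol. The table is named for FPKM, but every column sums to 1000000, so it was read as TPM. The submitters' processing notes name build GRCm39, Salmon and Trim Galore 0.5.0, without their roles. According to the labels' protocols, RNA came from an RNeasy Mini kit and was sequenced on a NextSeq instrument. The labels name the cells by the undefined term "PAS-T" in all libraries except OVA/Citra replicate 1. Whole reads were recovered from the table for 16734 of 16734 genes above 0 in at least 2 libraries (100%, within 0.0001 reads or 3e-08 of the count), giving 14754470 to 17384330 reads and 14537 to 15111 genes above 0 a library. They are the smallest whole numbers that fit a gene's values, so counts with a common factor would come out too low. That such numbers were found does not show that each is the true count.

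Log2(TPM + 1) of genes with a group mean of 1 TPM or more was fitted over all 9 libraries with limma 3.58.1 (trend) in R 4.3.3, and two-sided p-values were adjusted by Benjamini-Hochberg over 11971 genes. The 10 members, the lists and the tests were chosen with earlier results of these data known. All members are named. Of each other list, each comparison names up to 3 called genes with the largest change, with groups that do not overlap and at least 5 TPM in the higher group, and for likeness each member's nearest gene is given. For 8 genes older symbols were used, and 1 macrophage marker was not used here. The 19 settings tried include the median of ratios, leaving out the granzyme genes, other filters and pseudocounts, a replicate block, each library left out, and 2 added after seeing the data: voom on the recovered reads, and leaving out replicate 2 of OVA and OVA/Citra.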

Additional observations from a re-analysis of the deposited data

How the results depend on the processing

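Changes in this paragraph are log2 differences without subtraction of the median of all genes. Of the 19 settings, 18 refitted all genes in each comparison, and the other added the ferritin copies to their parent gene for the ratio only. Over those 18, 5 to 7 members were called in OVA/Citra against OVA, where 6 were reported. In OVA against CTRL and in OVA/Citra against CTRL, 7 to 8 were called, where 8 were reported in each. The count of all genes called stayed within 1.5 times of that reported in all 54 alternatives. Leaving out 1 library each gave 6211 to 6953 genes called in OVA/Citra against OVA, 8018 to 8629 in OVA against CTRL and 6332 to 7345 in OVA/Citra against CTRL. Of the recomputed changes of members, 469 kept direction and call, 11 no longer passed, 1 newly passed and 5 turned direction. Those 5 are all in OVA/Citra against OVA and of genes that did not pass there, and the cause was not tested. Slc11a2 was at -0.011 with the median of ratios, against 0.11 as reported. Ireb2, at 0.040 as fitted without scaling, was at -0.087 with the median of ratios and -0.028 without the granzyme genes, and ran from -0.020 to 0.11 with 1 library, or both replicate 2 libraries, left out. The Fth1 to Ftl1 log2 ratio in OVA/Citra against CTRL ran from -1.40 to -1.23 with 1 library left out, with -1.23 without OVA/Citra replicate 2. Bach1 in OVA against CTRL also did not pass without the filter on low values (adjusted p = 0.0631) or without the granzyme genes (adjusted p = 0.142). The share of higher calls in OVA against CTRL was 52.4% without the granzyme genes, against 44.6% with them.

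Deviations of libraries with the same replicate number correlated at -0.0121 to 0.304, and those with different numbers at -0.254 to 0.168. The highest value was between replicate 2 of OVA and of OVA/Citra. The labels give no batch, so the numbers were not taken as pairs in the main fit. Whether they mark a batch was not tested. With the replicate as a block, 7004, 8578 and 7128 genes were called in OVA/Citra against OVA, OVA against CTRL and OVA/Citra against CTRL, and 6, 7 and 8 members, Bach1 in OVA against CTRL no longer passing (adjusted p = 0.0524). Steap3 and Bach1 rest on the fewest reads of the tested members, 47 to 395 and 100 to 222 a library, which limits their precision.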
